A study of Mus musculus with 28 samples.

Results

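The genes described here are 10 of the 24116 gene IDs in the count tables, chosen by symbol: Zscan4c, Zscan4d and Zscan4f; Usp17la, Usp17lc, Usp17ld and Usp17le; Zfp352; and Tcstv1 and Tcstv3. All are known from the 2-cell mouse embryo. Because copies within a family share sequence, counts were also summed per family over every copy in the tables, which adds Zscan4a, Zscan4b and Usp17lb and makes 13 genes. The RNA came from RGd2 cells, a female line of mouse embryonic stem cells with a short-lived GFP reporter in the Rex1 gene (Rex1:GFPd2). They were kept naive with inhibitors of Gsk3 (CHIR99021) and Mek (PD0325901), together called 2i, which is the stage named ESC, or were harvested 16 h or 32 h after both inhibitors had been taken away. One set of libraries came from total RNA freed of ribosomal RNA (ScriptSeq, the ribo-depleted set) and held wild-type (WT) and Zfp281 knockout (KO) cells at all 3 stages. The other set came from polyadenylated RNA (TruSeq, the polyA set) and covered ESC and 32 h for WT cells, for both single KOs of Ehmt1 and Zic2 and for the double KO of these genes. There were 14 groups and n = 2 per group, which were clones 1 and 2 of a KO or 2 WT lines. The WT lines are called WT and Zfp281_WT in the ribo-depleted set and Ehmt1_WT and Zic2_WT in the polyA set. The labels name no kit for the line called WT, which is taken here as a control of the Zfp281 KO, the one KO sampled with it at 16 h. Histone genes whose RNA lacks a polyA tail (17) summed to 964 to 1849 CPM (counts scaled to library size) in its 3 libraries and to 0.884 to 3.48 CPM in the polyA set. How the KO clones were made is not given in the sources used here, and p-values measure only the spread between these lines.

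In the mouse embryo these genes are switched on in a short burst at the 2-cell stage, when transcription of the zygote's own genome starts. In stem cell cultures the same genes are on in a rare and passing fraction of the cells. The Zscan4 genes encode zinc finger proteins with a SCAN domain that are linked to telomere lengthening, the Usp17l genes encode deubiquitinating enzymes, Zfp352 encodes a zinc finger protein, and Tcstv1 and Tcstv3 are small genes named for their variable expression at the 2-cell stage. Ehmt1, also called GLP, works with its partner Ehmt2 (G9a) to methylate lysine 9 of histone H3, a mark that keeps many such genes silent. Zfp281 and Zic2 are zinc finger transcription factors of pluripotent cells.

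The copies lie in clusters. In RefSeq on GRCm38.p6, the Zscan4 copies of the tables lie between chr7:10794241-10799065 (Zscan4a, annotated as a transcribed pseudogene) and chr7:11397915-11402318 (Zscan4f), with Zscan4c at chr7:11005745-11010547 and Zscan4d at chr7:11161643-11166148. The Usp17l copies lie farther along the same chromosome, from Usp17ld (chr7:103250086-103252505) and Usp17lc (chr7:103416696-103419174) to Usp17la (chr7:104857016-104862667). Zfp352 is alone at chr4:90218820-90225687, and Tcstv1 and Tcstv3 lie at chr13:119893387-119894785 and chr13:120316862-120318261. The 250 bases before the annotated starts were also alike within a family, to different degrees. They were 83.6% to 94.8% identical between pairs of Zscan4 copies (92.8% for Zscan4c and Zscan4d) and 64% to 87.6% between pairs of Usp17l copies (79.2% for Usp17lc and Usp17la). Windows were set by the annotated start, so a start that lies elsewhere in another copy lowers these values. Shifted starts and differences in sequence were not separated. The windows of 5 members are shown, so that 2 copies of each of the 2 larger families can be set beside each other and beside Zfp352. They are chr7:11005495-11005744 (plus strand) for Zscan4c, chr7:11166149-11166398 (minus strand) for Zscan4d, chr7:103416446-103416695 (plus strand) for Usp17lc, chr7:104856766-104857015 (plus strand) for Usp17la and chr4:90218570-90218819 (plus strand) for Zfp352, each written 5′ to 3′ on the gene's strand with any TATAAAA in capitals:
Zscan4c: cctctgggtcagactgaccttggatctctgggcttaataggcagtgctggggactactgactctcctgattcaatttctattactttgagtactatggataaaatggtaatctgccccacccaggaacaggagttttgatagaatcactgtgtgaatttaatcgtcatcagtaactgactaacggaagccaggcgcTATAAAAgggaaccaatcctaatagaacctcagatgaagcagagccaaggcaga
Zscan4d: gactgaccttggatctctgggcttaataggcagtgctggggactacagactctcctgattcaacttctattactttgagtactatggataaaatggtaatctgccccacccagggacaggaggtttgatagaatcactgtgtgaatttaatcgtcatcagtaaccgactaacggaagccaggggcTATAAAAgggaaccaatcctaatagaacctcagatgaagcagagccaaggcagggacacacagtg
Usp17lc: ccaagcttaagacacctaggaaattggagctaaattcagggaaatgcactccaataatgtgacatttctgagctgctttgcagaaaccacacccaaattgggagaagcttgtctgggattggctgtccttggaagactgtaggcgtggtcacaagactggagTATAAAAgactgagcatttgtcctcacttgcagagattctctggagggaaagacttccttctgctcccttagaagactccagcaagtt
Usp17la: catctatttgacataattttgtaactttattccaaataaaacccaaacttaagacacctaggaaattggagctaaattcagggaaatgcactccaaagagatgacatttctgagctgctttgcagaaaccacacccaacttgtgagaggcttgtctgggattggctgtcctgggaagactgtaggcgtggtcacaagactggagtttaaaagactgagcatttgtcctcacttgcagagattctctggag
Zfp352: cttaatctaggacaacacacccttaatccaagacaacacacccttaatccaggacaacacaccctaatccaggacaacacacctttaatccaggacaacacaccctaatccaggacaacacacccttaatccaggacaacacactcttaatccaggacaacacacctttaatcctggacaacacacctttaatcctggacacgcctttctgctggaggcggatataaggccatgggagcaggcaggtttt

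The letters TATAAAA, searched on the gene's strand, were in the windows of 7 of the 9 copies that had one, against 3.02% of 32851 promoter windows of the same length. The motif lay 31 bases before the annotated start in Zscan4b, Zscan4f and Usp17lb, 54 in Zscan4c, 65 in Zscan4d, 88 in Usp17lc and 110 in Usp17ld. It was not in the windows of Usp17la and Zfp352. The motif was added after the sequences had been seen, and the windows of a family are alike. The 7 matches are thus not independent of each other, and setting them beside the 3.02% is a description and no test. Motif letters for Zfp281 (GGGGAGGGG, in 5.75% of the windows) and for Zic proteins (CAGCAGG, 8.44%) and the Dux motif, of a factor of the 2-cell stage (0.0304%), were searched on both strands and were in none of the 9 windows. A match or its absence describes letters in 250 bases only.

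Single copies can be told apart only where their sequence differs. In the GENCODE vM21 transcripts, 92.9% of the 50-base stretches of Zfp352 were in no other gene, and so were 68.6% of those of Tcstv3. Among the Usp17l copies the share ran from 48.9% in Usp17ld and 55.3% in Usp17lc to 80.4% in Usp17la. Zscan4d (50.4%) had the most of the Zscan4 copies, with 14.5% in Zscan4c and 4.66% in Zscan4f. Zscan4f had 0 counts in all 28 libraries, which allows up to 3 counts a library for counting error alone, and Tcstv1 had 0 to 2 counts. Zscan4c had 0 to 3 counts in the polyA libraries and 0 to 72 in the ribo-depleted ones. How reads that fit several copies were counted is not given in the sources used here, so a count of one Zscan4 or Usp17l copy can hold reads of another, and a copy at 0 may be silent or may have lost its shared reads. Of the 10 members, 8 passed the filter on low counts in the fit of ribo-depleted ESC and 32 h data (all but Zscan4f and Tcstv1), 7 at 16 h (without Tcstv3) and 7 in the polyA libraries (without Zscan4c, Zscan4f and Tcstv1). Tcstv3 and Usp17ld in the polyA set, and Tcstv3 in the ribo-depleted set, reached the filter's minimum in 0 of 4 WT libraries. Zscan4c reached it in 1 of 4 at ESC and 32 h, and Zscan4c, Usp17la, Usp17lc and Usp17ld in 1 of 2 at 16 h. These members passed through their KO libraries, so their calls against WT, and the counts and medians over members that include them, are descriptions only.

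**Figure D1:**
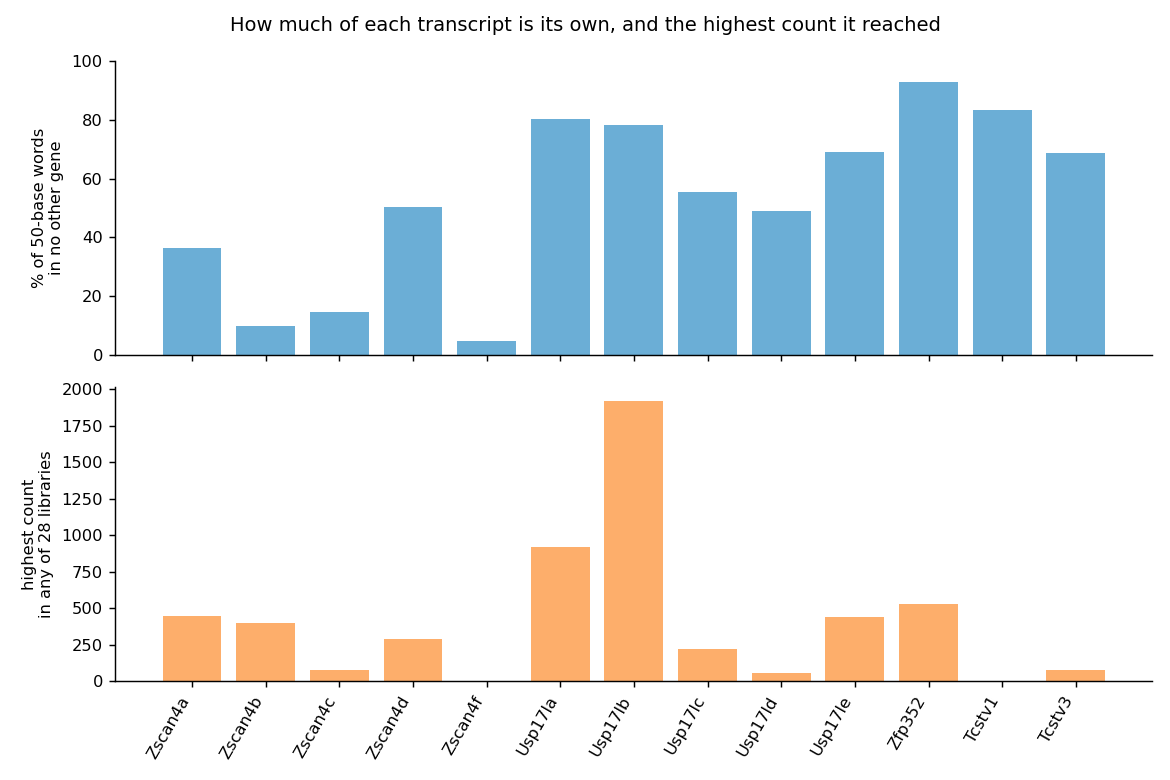
Percent of the 50-base stretches of each copy's transcript that occur in no other gene (GENCODE vM21), above the highest count the copy reached in any of the 28 libraries, 1 bar per copy. Zfp352 stands at 92.9% and the Zscan4 copies reach from 4.66% to 50.4%, while Usp17lb has the highest count (1917) and Zscan4f none.

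Depth ran from 18086421 to 36365192 counts a library in the ribo-depleted set and from 19013882 to 28777604 in the polyA set. The cells expressed the stem cell genes Pou5f1, Sox2, Nanog and their partners in every library (8 genes, summed to 1513 to 4687 CPM). Ehmt1 RNA was lower in cells labelled Ehmt1 KO (21.2 against 86.8 CPM at ESC, log2 fold change -2.03 ± 0.17 SE, adjusted p = 4e-06 in edgeR's quasi-likelihood test). Zfp281 RNA in libraries labelled Zfp281 KO was 279 against 270 CPM at ESC, and Zic2 RNA in libraries labelled Zic2 KO was 128 against 108 CPM, so neither label is checked by the level of its gene. Zic2 RNA at ESC in the double KO was 141 CPM in clone 1 and 66.5 CPM in clone 2, against 108 CPM in WT. The Zic2 part of that label is thus not checked by RNA level in clone 1, and double KO names the label throughout. The WT line Zfp281_WT stands apart at ESC and 32 h: 89.0% and 87.0% of 1108 olfactory receptor genes had a count in it, whereas the remaining 6 libraries of that fit had 11.3% to 24.8%. At 16 h it had 8.94%, the lowest of the 4 libraries, so results on the ribo-depleted set are also given without that line, which leaves 1 WT library a stage that is assumed to vary like the others.

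In every KO library the Zscan4 and Usp17l sums and Zfp352 were above both WT lines of the same kit and stage. The order differed by family. For Zscan4 in the polyA set, the summed level was 2.97 ± 0.0282 CPM (SD, n = 2) in WT ESC and 5.40 ± 0.304 CPM in WT at 32 h, then 10.5 ± 1.25 CPM in Ehmt1 KO at 32 h and 11.4 ± 6.26 CPM in Ehmt1 KO ESC. Above these stood the double KO (16.9 ± 7.09 CPM at 32 h and 18.4 ± 11.0 CPM at ESC) and Zic2 KO (20.0 ± 0.196 CPM at ESC and 26.2 ± 2.64 CPM at 32 h). Neighbours from Ehmt1 KO at 32 h up to Zic2 KO ESC overlapped, whereas WT ESC lay below WT 32 h and Zic2 KO ESC below Zic2 KO 32 h with no overlap. For Usp17l the polyA order was WT ESC (3.55 ± 1.77 CPM), WT 32 h (7.04 ± 1.45), Zic2 KO ESC (17.4 ± 1.09), Zic2 KO 32 h (20.8 ± 0.685), Ehmt1 KO 32 h (50.5 ± 2.65), Ehmt1 KO ESC (60.8 ± 22.3), double KO ESC (92.8 ± 54.5) and double KO 32 h (96.1 ± 46.2). The last 4 of these overlapped with their neighbours. By group means, Zscan4 was thus highest in libraries labelled Zic2 KO and Usp17l in the double KO. In the ribo-depleted set the Zscan4 sums of all 3 WT stages (3.59 ± 3.74, 5.67 ± 5.56 and 9.37 ± 8.43 CPM at ESC, 16 h and 32 h) lay below those of the libraries labelled Zfp281 KO (16.6 ± 1.50, 24.8 ± 4.41 and 41.6 ± 3.29 CPM). The 16 h libraries were normalised on their own, so their place in that order is a description. Levels are not set against each other across the 2 kits.

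**Figure D2:**
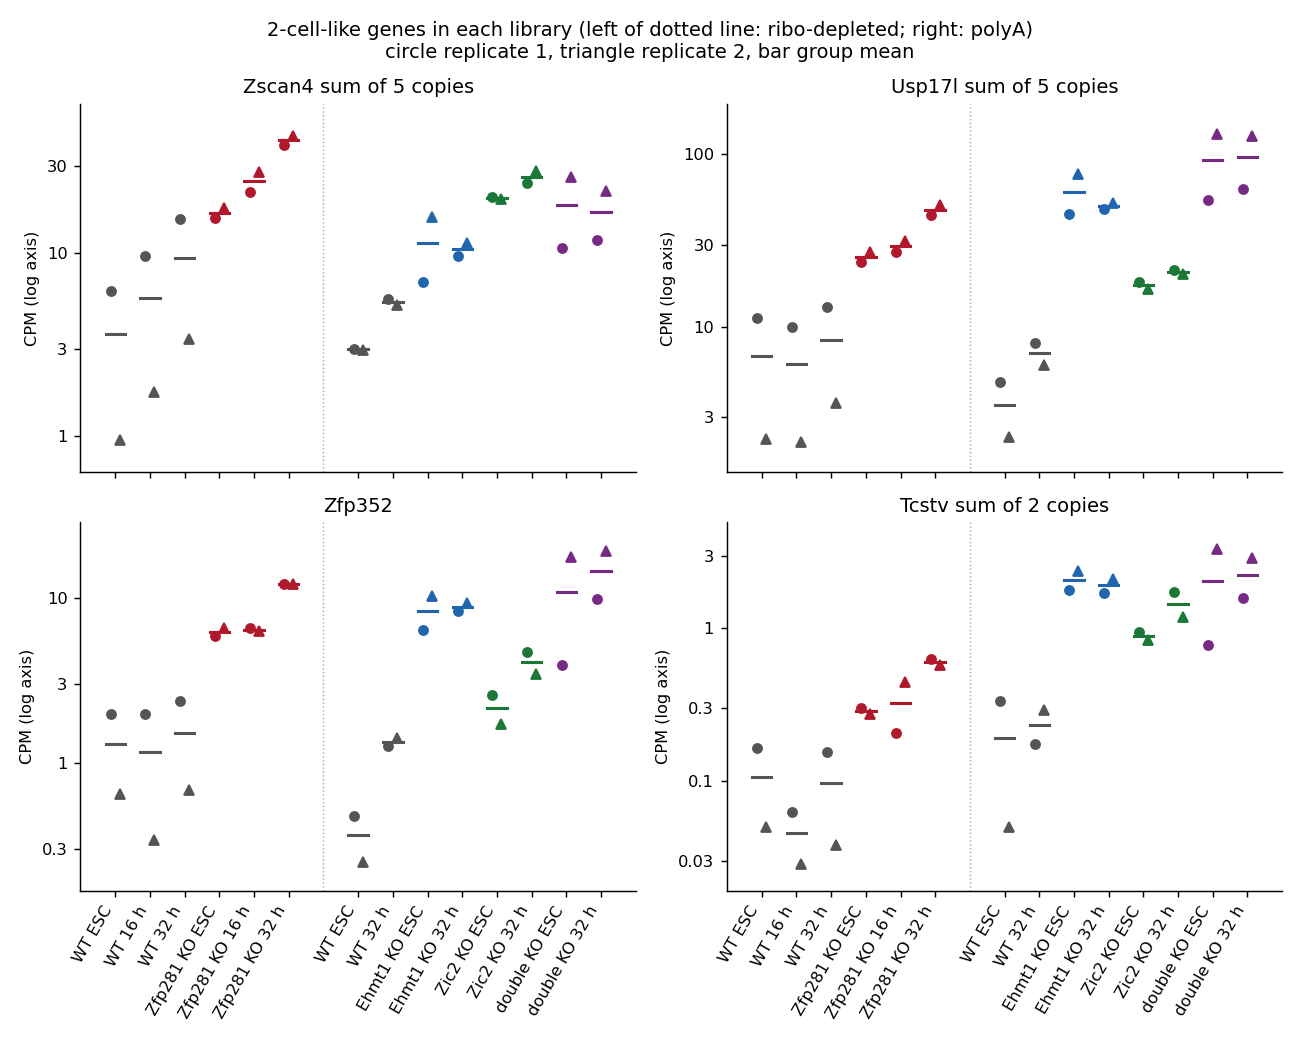
Summed level of each family (CPM, log axis) in every library, 1 panel per family and 1 point per library, grouped by genotype and stage, with a bar at the group mean, circles for replicate 1 and triangles for replicate 2. The ribo-depleted set is left of the dotted line and the polyA set right of it. Every KO library lies above both WT lines of its kit and stage for Zscan4, Usp17l and Zfp352.

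Per kilobase of exon, the most abundant copy in the libraries labelled Zfp281 KO at 32 h was Usp17lb (12.9 CPM per kb), followed by Zscan4b (7.42), Usp17le (7.32), Zscan4a (6.87), Zfp352 (5.32) and Zscan4d (4.45). At ESC in the double KO it was again Usp17lb (29.8 CPM per kb), followed by Usp17la (9.11) and Usp17le (7.80), with Zscan4b at 4.82 and Zfp352 at 4.78. Tcstv3 stood at 0.777 and 2.56 CPM per kb in these groups. Usp17lb, a copy outside the 10 members, was thus the most abundant one per length in these 2 groups. Zscan4b stood above it in libraries labelled Zic2 KO (5.88 against 4.15 CPM per kb at ESC). Zscan4a and Zscan4b held 54.3% to 83.2% of the Zscan4 counts over all 28 libraries.

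Levels of all 4 families were higher in naive Ehmt1 KO cells than in WT. The Usp17l sum was 45.0 CPM in clone 1 and 76.6 CPM in clone 2 at ESC, against 4.80 CPM in Ehmt1_WT and 2.30 CPM in Zic2_WT. Both clones stood far above both WT lines, and the sum rose by 4.09 ± 0.49 on the log2 scale (SE, edgeR, adjusted p = 7e-05). Zfp352 rose from 0.475 and 0.250 CPM in WT to 6.42 and 10.2 CPM (log2 fold change 4.49 ± 0.72, adjusted p = 0.00061). For Zscan4 it was 6.93 and 15.8 CPM, against 2.99 and 2.96 CPM, and rose less (1.92 ± 0.45, adjusted p = 0.0074). Whether more cells had entered the 2-cell-like state or each such cell held more RNA cannot be told apart in bulk RNA.

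Of the 10 members, 7 passed the filter at ESC and all 7 were called higher in Ehmt1 KO cells, where 14.8% of the 15667 genes tested rose. Their median log2 fold change was 3.58, against -0.01 over all genes. Tcstv3 and Usp17ld, with 1 to 6 counts in each WT library, had passed through the KO libraries. Usp17la (4.26 ± 0.51) and Usp17lc (4.12 ± 0.47, adjusted p = 6.8e-05 and 4.8e-05) moved most among the Usp17l members, followed by Usp17le (3.58 ± 0.55). Usp17lc was at 0.150 and 0.238 CPM in the WT libraries at ESC, so the size of its rise rests on few counts. Zscan4d, which is the Zscan4 copy with most sequence of its own, was at 3.17 and 3.80 CPM in the KO clones and at 0.951 and 0.501 CPM in WT (2.24 ± 0.48, adjusted p = 0.004). Tcstv3 was at 1.79 and 2.32 CPM (39 and 44 counts) in the KO clones and at 0.285 and 0.0501 CPM (6 and 1 counts) in WT. At 32 h 6 of the 7 were called higher, where 15.1% of all genes rose: Tcstv3, at 36 and 52 counts against 4 and 7 in WT, and Usp17la (3.16 ± 0.46), Usp17lc (2.20 ± 0.38), Usp17le (2.06 ± 0.50), Zfp352 (2.71 ± 0.59) and Zscan4d (1.75 ± 0.44). Usp17ld was not called (1.62 ± 0.68, adjusted p = 0.096). The Zscan4 sum at 32 h was 9.63 and 11.4 CPM against 5.61 and 5.19 CPM in WT, with no overlap but no call (0.96 ± 0.43, adjusted p = 0.11), and Zscan4a was at 0.24 ± 0.63 (adjusted p = 0.82). Summed over the listed members alone, which leaves out Zscan4a and Zscan4b, the Zscan4 value at 32 h was 1.73 (adjusted p = 0.011). The ESC call of the Zscan4 sum was lost without clone 2 (1.23, adjusted p = 0.081) and without Ehmt1_WT (1.94, adjusted p = 0.058), and that of Usp17ld without either WT line or without clone 2. At 32 h the call of Tcstv3 was lost without Ehmt1_WT (2.67, adjusted p = 0.075), and those of Zscan4d (1.45, adjusted p = 0.1) and Usp17le (1.65, adjusted p = 0.092) without Zic2_WT.

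In libraries labelled Zic2 KO all 4 families were above both WT lines, and the Zscan4 sum at ESC was the one called. Whether the families differed from each other in this was not tested. The Zscan4 sum was 20.2 and 19.9 CPM at ESC against 2.99 and 2.96 CPM in the WT lines, and rose by 2.75 ± 0.45 on the log2 scale (adjusted p = 0.028). The lowest KO library was 6.65 times the highest WT library. At 32 h it was 24.4 and 28.1 CPM against 5.61 and 5.19 CPM (2.28 ± 0.43, adjusted p = 0.076). The Usp17l sum was 18.2 and 16.7 CPM at ESC, above the WT libraries by a smaller margin (2.29 ± 0.48, adjusted p = 0.067). Zfp352 was at 2.56 and 1.72 CPM, against 0.475 and 0.250 CPM (2.53 ± 0.78, adjusted p = 0.22). None of the 7 members that passed was called at either stage in the main edgeR fit, where 0.16% of all genes rose at ESC and 0.0447% at 32 h. Some members were called at both stages with DESeq2, with no filter and with only the groups compared. More of all genes were called there too. At 32 h the Zscan4 sum was called with DESeq2 and with only the groups compared. In the main fit all 7 had an unadjusted p under 0.05 at both stages, with log2 fold changes of 2.16 to 2.54 at ESC and 1.38 to 2.61 at 32 h. KO and WT libraries overlapped in none of them, where 20.1% of all genes at ESC and 26.9% at 32 h were higher with no overlap. Among the 7, Tcstv3 and Usp17ld reached the filter's minimum in 0 of 4 WT libraries and passed through KO libraries. These counts and ranges are therefore descriptions only. Counts at an unadjusted p under 0.05 are given without the share of all genes, here and in every later comparison. They too are descriptions only. The Zscan4 sum lost its call at ESC in the tests that left out any 1 of the 4 libraries (2.75 to 2.78), with no filter on low counts (2.76) and over the listed members alone (2.48). In these comparisons 43 genes in all were called at ESC and 12 at 32 h.

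In the Ehmt1/Zic2 double KO all 4 families were called higher at both stages (Tcstv against 1 to 7 counts in each WT library), and the clones differed. The Usp17l sum at ESC was 54.2 CPM in clone 1 and 131 CPM in clone 2 (4.70 ± 0.50 against WT, adjusted p = 2.1e-05). Zfp352 was at 3.94 and 17.8 CPM (4.87 ± 0.72, adjusted p = 0.00024), a 4.52-fold gap between clones. Zscan4 summed to 10.6 and 26.2 CPM (2.63 ± 0.45, adjusted p = 0.00074). Clone 2, which also had the lower Zic2 RNA, was the higher one for each family at both stages, and the part of that in the result was not tested. All 7 members that passed, Tcstv3 and Usp17ld among them with 1 to 8 counts in each WT library, were called higher at ESC, where 20.9% of all genes rose, and at 32 h, where 21.4% did. At 32 h Usp17la was at 16.3 and 33.5 CPM against 1.67 and 1.08 CPM in WT (4.18 ± 0.47, adjusted p = 3.6e-05), Usp17lc rose by 3.04 ± 0.37 and Zscan4d by 2.48 ± 0.43. Tcstv3 was at 47 and 77 counts there, against 4 and 7 in WT. The Zscan4 sum at 32 h rose by 1.64 ± 0.42 (adjusted p = 0.0084), and this call was lost without clone 2 (1.16, adjusted p = 0.081) and without Zic2_WT (1.58, adjusted p = 0.061). Usp17ld at 32 h (2.09 ± 0.65) lost its call without clone 2 and without either WT line. The Ehmt1 KO, Zic2 KO and double KO comparisons share their WT libraries.

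Set directly against Ehmt1 KO cells, no member was called in the double KO at either stage, where 0.0957% of all genes at ESC and 0.223% at 32 h were, and 1 member at ESC and 2 at 32 h had an unadjusted p under 0.05. The Usp17l difference was 0.61 ± 0.40 at ESC and 0.93 ± 0.40 at 32 h, and the Zscan4 difference 0.70 ± 0.41 and 0.68 ± 0.41. Without clone 2 of the double KO, the values at ESC were -0.18 for Usp17l and -0.11 for Zscan4. Set against libraries labelled Zic2 KO, 4 members were higher at ESC, where 19% of all genes were: Usp17la (2.69 ± 0.43), Usp17lc (2.05 ± 0.36), Usp17le (1.53 ± 0.46) and Zfp352 (2.34 ± 0.57). At 32 h 3 were higher, where 20% of all genes were: Usp17la (2.80 ± 0.42), Usp17lc (1.54 ± 0.33) and Zfp352 (1.82 ± 0.53). The Usp17l sum of the double KO was higher by 2.41 ± 0.43 (adjusted p = 0.0011) and 2.20 ± 0.42 (adjusted p = 0.0017), while the Zscan4 sum was at -0.12 ± 0.40 and -0.64 ± 0.40. Over the listed members alone the Zscan4 value was positive at both stages. At ESC 2 members were called without clone 2 of the double KO or without clone 2 of the Zic2 KO. At 32 h 2 were called without clone 2 of the double KO or without either Zic2 KO clone.

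**Figure D3:**
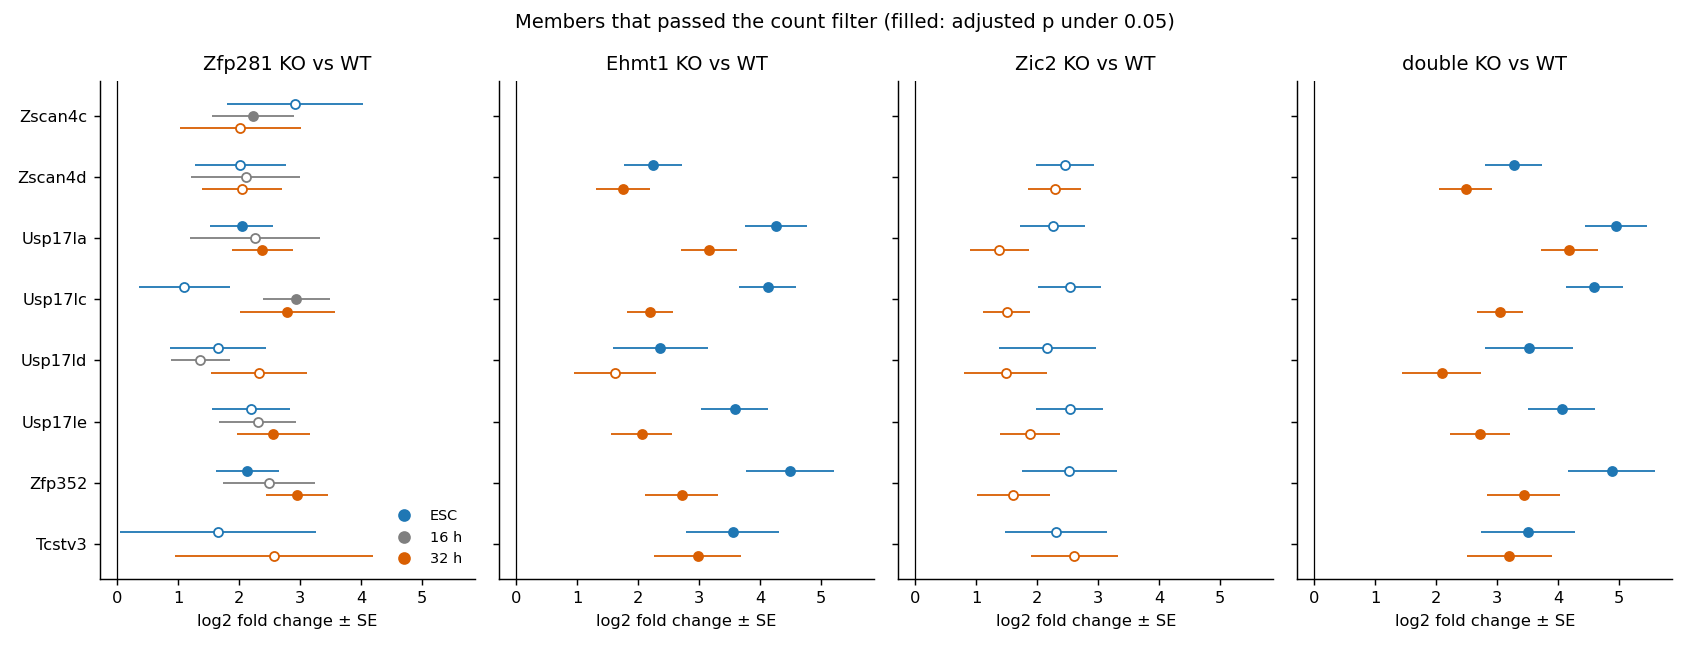
Log2 fold change against WT (x axis, with standard error) of each member that passed the filter, 1 panel per KO genotype, with stages in color. Filled points have an adjusted p under 0.05. All values are above 0. At ESC Usp17la and Zfp352 stand at 4.26 and 4.49 in the Ehmt1 KO, and Zfp352 at 4.87 in the double KO.

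Which family stood higher in Ehmt1 KO cells than in libraries labelled Zic2 KO was tested directly, in a comparison added after these values had been seen. At ESC, Usp17la (2.00 ± 0.42, adjusted p = 0.0041), Usp17lc (1.59 ± 0.37, adjusted p = 0.0065) and Zfp352 (1.96 ± 0.57, adjusted p = 0.023) were higher in Ehmt1 KO cells than in libraries labelled Zic2 KO, where 15.2% of all genes were higher. Zscan4d was at -0.22 ± 0.41. At 32 h Usp17la alone among the members was called (1.78 ± 0.42, adjusted p = 0.0074), where 15.7% of all genes were higher, and 2 copies outside the members were lower, Zscan4a (-1.73 ± 0.59, adjusted p = 0.045) and Zscan4b (-1.58 ± 0.46, adjusted p = 0.022). The Usp17l sum was higher in Ehmt1 KO cells at both stages (1.80 ± 0.42, adjusted p = 0.0075, and 1.28 ± 0.42, adjusted p = 0.036). Zscan4 as a sum was lower at 32 h (-1.32 ± 0.41, adjusted p = 0.03) and did not pass at ESC (-0.83 ± 0.41, adjusted p = 0.16). These calls rest on few libraries. Leaving out clone 2 of the Zic2 KO ended all 3 member calls at ESC and the 1 at 32 h. The Usp17l call at ESC was lost without clone 2 of either KO (1.36, adjusted p = 0.057, and 1.73, adjusted p = 0.066). At 32 h it was lost without any 1 of the 4 libraries (adjusted p of 0.088 to 0.17) and over the listed members alone (0.87, adjusted p = 0.12). The 32 h call of the Zscan4 sum was lost without any 1 of the 4 libraries compared, and its value over the listed members alone was -0.55 (adjusted p = 0.32). At ESC the Zscan4 sum was called without clone 2 of the Ehmt1 KO (-1.54, adjusted p = 0.035).

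The ratio of Usp17l to Zscan4 counts within a library does not depend on library size. It is made from the same counts as the sums above, so it describes the split again and is no further test of it. All copies entered it, among them Usp17lb, Zscan4a and Zscan4b, which are outside the members. The ratio was 4.59 to 6.49 in the 4 Ehmt1 KO libraries and 5.01 to 5.88 in the 4 double KO libraries. It was 0.724 to 0.902 in the 4 libraries labelled Zic2 KO and 0.780 to 1.60 in the 4 WT libraries of that set, so that neither group reached the Ehmt1 KO range. In the 12 ribo-depleted libraries it was 0.856 to 2.37, with WT and libraries labelled Zfp281 KO overlapping. The make-up of the Usp17l counts moved with it. Usp17la and Usp17lb held 73.3% to 80.4% of the family's counts in Ehmt1 KO and double KO libraries, against 50.1% to 65.3% in the other polyA libraries. Among the Zscan4 counts, Zscan4a and Zscan4b held 54.3% to 75.6% in Ehmt1 KO, 58.6% to 62.8% in double KO and 77.7% to 79.9% in Zic2 KO libraries, with WT at 68.3% to 83.2%.

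**Figure D4:**
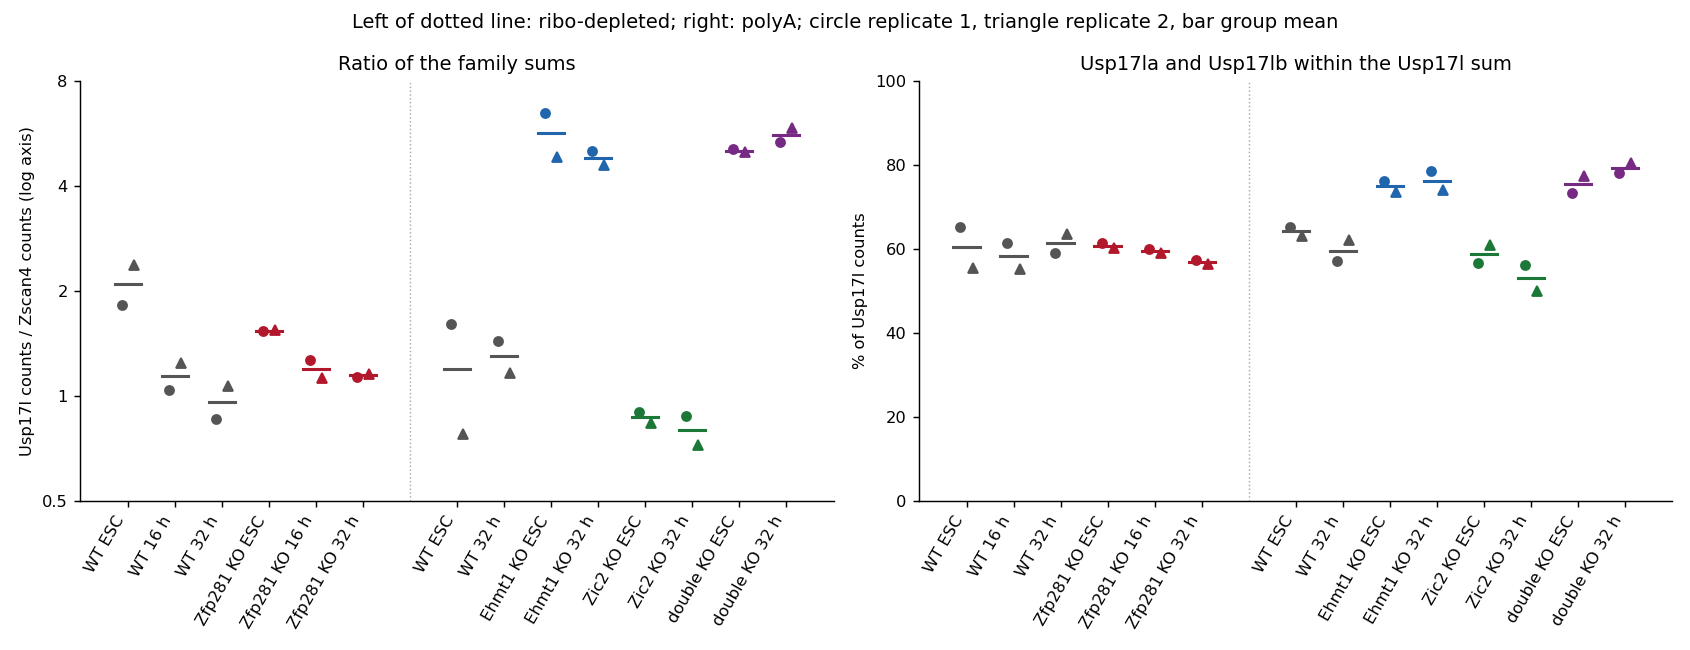
Usp17l counts divided by Zscan4 counts in each library (left panel, log axis), and the percent of Usp17l counts in Usp17la and Usp17lb (right panel), 1 point per library by genotype and stage, with a bar at the group mean. The 8 Ehmt1 KO and double KO libraries lie between 4.59 and 6.49 on the left, and the Zic2 KO and WT libraries of the polyA set between 0.724 and 1.60. The ribo-depleted libraries lie between 0.856 and 2.37 and are not set against the polyA ones.

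Libraries labelled Zfp281 KO held more of these transcripts at every stage, with both clones close together and the WT lines far apart. The Zscan4 sum at ESC was 15.6 and 17.7 CPM in the clones, 6.23 CPM in the line WT and 0.947 CPM in Zfp281_WT. At 16 h it was 21.6 and 27.9 CPM against 9.60 and 1.74 CPM, and at 32 h 39.3 and 43.9 CPM against 15.3 and 3.41 CPM. The clones were above both WT lines each time, by at least 2.50, 2.26 and 2.56 times the higher WT line. The WT lines themselves differed 6.58-fold, 5.52-fold and 4.50-fold, and the Zscan4 sum did not pass (2.06 ± 0.89, adjusted p = 0.21; 2.14 ± 1.01, adjusted p = 0.26; 2.12 ± 0.80, adjusted p = 0.12). The Usp17l sum was 23.9 and 27.3 CPM at ESC against 11.3 and 2.24 CPM (1.81 ± 0.78, adjusted p = 0.22), and 44.6 and 50.7 CPM at 32 h against 13.1 and 3.63 CPM (2.48 ± 0.78, adjusted p = 0.075).

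Of the 8 members that passed, 2 rose at ESC, Usp17la (2.04 ± 0.52, adjusted p = 0.033) and Zfp352 (2.13 ± 0.52, adjusted p = 0.032), where 8.5% of all genes rose. Zfp352 was at 5.85 and 6.56 CPM against 1.97 CPM in WT and 0.648 CPM in Zfp281_WT. At 32 h 4 rose, where 16.6% of all genes did: Zfp352 (2.95 ± 0.50, adjusted p = 0.0038), Usp17la (2.38 ± 0.50, adjusted p = 0.0077), Usp17le (2.56 ± 0.60, adjusted p = 0.021) and Usp17lc (2.79 ± 0.78, adjusted p = 0.026). At 16 h 2 of 7 were called higher, where 15.3% of all genes rose. These were Usp17lc, at 67 and 76 counts in the clones against 18 in WT and 3 in Zfp281_WT, and Zscan4c, at 41 and 46 against 19 and 2. Both reached the filter's minimum in 1 of 2 WT libraries and passed through their KO libraries, so these calls are descriptions only. Zscan4c passed the filter in this set only, at 0.996 and 0.950 CPM in the ESC clones against 0.219 and 0 CPM, and at 2.54 and 2.42 CPM at 32 h against 1.09 and 0.114 CPM. Tcstv3 was at 0.276 to 0.634 CPM in the clones at ESC and 32 h and was not called (1.66 ± 1.60 and 2.58 ± 1.63). All tested members had positive values, with medians of 2.03, 2.27 and 2.47 at ESC, 16 h and 32 h. The medians over all genes were -0.04, -0.01 and -0.07. KO and WT libraries did not overlap in any tested member, where 30.2%, 34.2% and 34% of all genes were higher with no overlap. Members that passed through their KO libraries are included, so these medians and counts are descriptions only.

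The number of calls and the size of the values depended on which WT line was left out. Without Zfp281_WT 5 members rose at ESC (16.9% of all genes) and 8 at 32 h (24.7%). At 16 h 6 rose (17.3%). The Zscan4 sum then had smaller values, 1.35 at ESC, 1.37 at 16 h and 1.40 at 32 h. With 1 WT library a stage, the spread in these fits comes from the KO clones. They do not measure the spread between WT lines, so the counts of calls without Zfp281_WT are descriptions only. Leaving out only the ESC library of Zfp281_WT, with its 32 h library kept, gave a Zscan4 value of 1.34 at ESC. Without the library of the line WT in place of Zfp281_WT the Zscan4 values were 4.17 at ESC, 3.83 at 16 h and 3.61 at 32 h. Without either KO clone, 0 members were called at ESC (edgeR) and at 16 h, and 1 or 2 at 32 h.

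**Figure D5:**
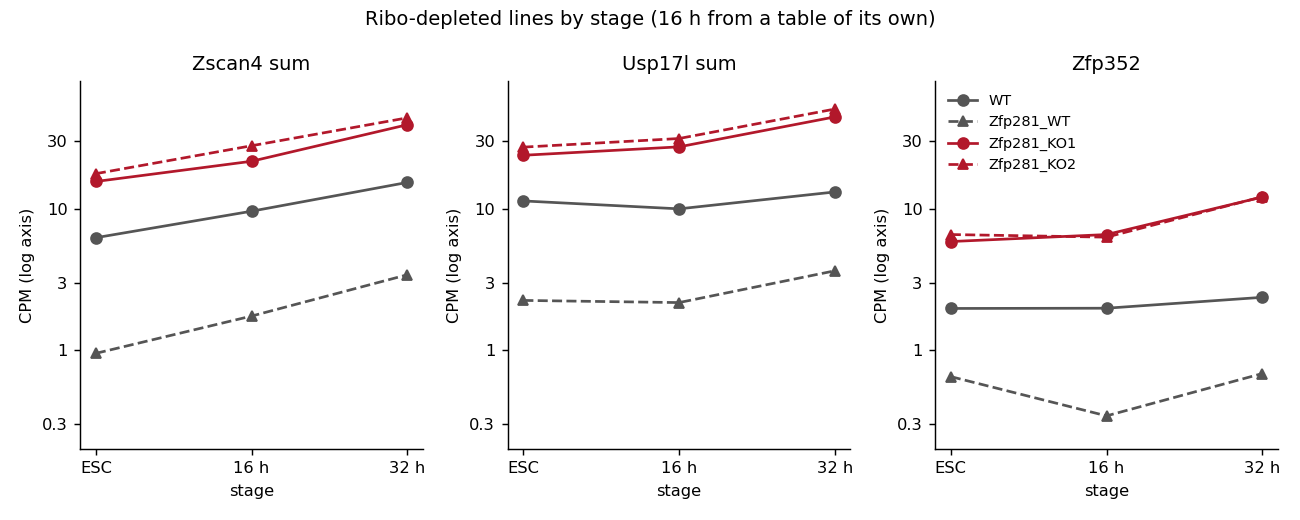
Family level (CPM, log axis) at each stage, with 1 line per clone or WT line of the ribo-depleted set, in panels for Zscan4, Usp17l and Zfp352. The 16 h values come from a table of their own. Both clones labelled Zfp281 KO run close together above WT, and Zfp281_WT runs lowest at every stage.

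After 2i was withdrawn, the Zscan4 sum was higher at 32 h than at ESC in 10 of 12 lines, the Usp17l sum in 10, Zfp352 in 11 and the Tcstv sum in 6. The ratio of 32 h to ESC for Zscan4 was 2.46 and 3.60 in the lines WT and Zfp281_WT and 2.52 and 2.48 in the clones labelled Zfp281 KO. In the polyA set the exceptions were clone 2 of the Ehmt1 KO (0.723) and clone 2 of the double KO. In the tests that took lines as independent, 1 member rose in the polyA WT cells, Usp17lc (1.86 ± 0.54, adjusted p = 0.017, where 17.9% of all genes rose), and no member was called without either WT ESC library or without Zic2_WT at 32 h. Usp17lc was at 0.150 and 0.238 CPM in these cells at ESC, so its rise starts from few counts. No member was called in ribo-depleted WT (25.9% of all genes changed; 0 members at an unadjusted p under 0.05), in libraries labelled Zfp281 KO (24.7%; 0), in Ehmt1 KO (22.5%; 0), in Zic2 KO (30.9%; 1) or in double KO cells (14.4%; 0).

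Each line was sampled at both stages, and the tests with the line as a replicate block called more. In ribo-depleted WT cells 3 members then rose (23.4% of all genes), Zscan4c (2.39 ± 0.59, adjusted p = 0.0044), Zscan4d (1.49 ± 0.25, adjusted p = 0.00018) and Usp17le (0.65 ± 0.21, adjusted p = 0.019). The Zscan4 sum rose by 1.39 ± 0.13 (adjusted p = 8.3e-07) and the Usp17l sum by 0.32 ± 0.12 (adjusted p = 0.047). Without Zfp281_WT and without the block, 2 members were called in this comparison, where 44.3% of all genes changed, and the Zscan4 sum rose by 1.20 ± 0.14. In libraries labelled Zfp281 KO 7 members rose with the block (23.7% of all genes), all of the 8 except Tcstv3, and the Zscan4 sum rose by 1.32 ± 0.09 (adjusted p = 2.9e-08), the Usp17l sum by 0.90 ± 0.09 (adjusted p = 1.1e-06) and Zfp352 by 0.97 ± 0.14 (adjusted p = 5.4e-05). In polyA WT cells 3 members rose (24.2%), Usp17lc, Usp17le (1.03 ± 0.29) and Zfp352 (1.87 ± 0.52), and both sums did (Zscan4 0.86 ± 0.24, Usp17l 1.01 ± 0.21). In libraries labelled Zic2 KO 2 members rose (21.8%), Usp17lc (0.83 ± 0.28) and Zfp352 (0.94 ± 0.31). In Ehmt1 KO and double KO cells none was called with the block either (17.4% and 13.7% of all genes rose). Their Zscan4 sum was at -0.03 ± 0.20 and -0.07 ± 0.18.

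Whether the 32 h response differed between KO and WT cells was tested as an interaction of genotype and stage, and no member was called without the block. Of all genes, 4.15% were called in this test for Zfp281, 1.86% for Ehmt1, 0% for Zic2 and 5.29% for the double KO, and among the members 0, 1, 0 and 1 had an unadjusted p under 0.05. With the block, Usp17lc (-1.91 ± 0.53, adjusted p = 0.037), Usp17le (-1.49 ± 0.34, adjusted p = 0.015) and the Usp17l sum (-1.24 ± 0.26, adjusted p = 0.0097) moved less upward in Ehmt1 KO than in WT cells, where 8.69% of all genes differed. Usp17le in the double KO (-1.30 ± 0.34, adjusted p = 0.018) and the Usp17l sum (-0.92 ± 0.26, adjusted p = 0.027) did so, where 16.7% of all genes differed. For Zfp281, Usp17lc (1.63 ± 0.45, adjusted p = 0.027) and the Usp17l sum (0.57 ± 0.15, adjusted p = 0.02) moved more upward in the KO, where 13.7% of all genes differed, and the Zscan4 sum differed by -0.07 ± 0.16 (adjusted p = 0.92). Without Zfp281_WT and without the block 1 member was called in that test, where 18.2% of all genes differed, and the Usp17l sum differed by 0.72 ± 0.16.

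Other genes known from the 2-cell embryo moved in these comparisons too. The list of such genes outside the 3 families and Zfp352 held 37 genes of the tables, of which 21 to 23 passed the filter. In Ehmt1 KO cells 13 of 22 rose at ESC and 10 at 32 h, where 14.8% and 15.1% of all genes rose, with medians of 2.37 and 0.90. Pramel6 and Pramel7, members of the Prame-like family of germline and early embryo genes, rose most: Pramel6 from 0.0964 to 12.0 CPM at ESC (6.86 ± 0.67, adjusted p = 1.4e-05) and Pramel7 from 0.0713 to 7.26 CPM (6.53 ± 0.77, adjusted p = 5.8e-05). Their WT levels at ESC are a few counts a library at most, so the size and rank of these rises are descriptions only. Among double KO cells 16 rose and 2 (Pramel13 and Patl2) fell at ESC and 13 rose at 32 h (20.9% and 21.4% of all genes rose), with Pramel6 at 33.5 and 42.7 CPM. In libraries labelled Zic2 KO 4 rose at ESC (0.16% of all genes), Pramel19 (2.84 ± 0.38, adjusted p = 0.014), Pramel31 (2.69 ± 0.43, adjusted p = 0.025), Gm5662 (3.32 ± 0.60, adjusted p = 0.043) and Arg2 (1.65 ± 0.25, adjusted p = 0.017), which encodes a mitochondrial arginase. At 32 h 1 fell, Pramel13 (-1.11 ± 0.15, adjusted p = 0.02). Pramel6 and Pramel7 were at 0.218 and 0.0698 CPM in these libraries at ESC, again a few counts, and differed from Ehmt1 KO (5.73 ± 0.59 and 6.52 ± 0.77 higher there, adjusted p = 2.2e-05 and 5.7e-05). At 32 h Arg2 (-1.02 ± 0.22, adjusted p = 0.0051) and Pramel31 (-1.60 ± 0.39, adjusted p = 0.0086) were lower in Ehmt1 KO than in libraries labelled Zic2 KO. In libraries labelled Zfp281 KO 9 of 23 rose at ESC (8.5% of all genes), 11 of 21 at 16 h (15.3%) and 13 of 23 at 32 h (16.6%), where Pramel13 and Patl2 fell. Among those that rose were Arg2 (1.81 ± 0.25, 1.79 ± 0.27 and 1.90 ± 0.23), Sp110, a nuclear body gene (1.76 ± 0.32, 4.02 ± 0.48 and 2.31 ± 0.30), and Ubtfl1, a testis and early embryo relative of the nucleolar factor Ubtf (1.45 ± 0.29, 2.61 ± 0.43 and 1.86 ± 0.28). Without Zfp281_WT the list's median was 1.31 at ESC, 1.54 at 16 h and 1.72 at 32 h. The medians over all genes were 0.01, 0.01 and 0.02. Those fits hold 1 WT library a stage and do not measure the spread between WT lines. Counts of Gm genes on the list that are copies of each other carry the same doubt as those of the members. Numbers of genes that fell, here and in the lists below, are given without the share of all genes that fell and are descriptions only.

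The gene most like the Zscan4 sum across libraries was Pramel19 in both kits, with Pearson's r of 0.972 over the 16 polyA libraries and 0.994 over the 8 ribo-depleted ESC and 32 h libraries, on log2(CPM + 0.5). It was followed in the polyA set by Pramel37 (0.948), Pramel31 (0.944), Tmem92 (0.935) and Fam124a (0.933), and in the ribo-depleted set by Mrpl44 (0.993), Mzt1 (0.993), Mtmr1 (0.992) and Gm5039 (0.992). Over the 6 ribo-depleted libraries without Zfp281_WT, Pramel19 was at 0.993 and ranked 34, and Mrpl44 (0.972) ranked 295. In the polyA set r of the Zscan4 sum was 0.663 with the Usp17l sum, 0.657 with Zfp352 and 0.730 with the Tcstv sum. In the ribo-depleted set it was 0.974, 0.941 and 0.903, and 0.928, 0.910 and 0.901 without Zfp281_WT. These values describe libraries that share lines, stages and genotypes.

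Of 35 genes known to activate or repress the 2-cell-like genes, all passed. Lin28a, an RNA-binding protein, fell in libraries labelled Zfp281 KO (388 to 77.6 CPM at ESC, -2.32 ± 0.10, adjusted p = 1.9e-05; -3.11 ± 0.09 at 16 h and -2.74 ± 0.10 at 32 h), in Ehmt1 KO (-1.12 ± 0.13 at ESC and -0.42 ± 0.13 at 32 h) and in the double KO (-1.66 ± 0.13 and -1.08 ± 0.13), and was at -0.56 ± 0.13 (adjusted p = 0.08) in Zic2 KO ESC. Dppa2, an activator of the 2-cell programme, rose in libraries labelled Zfp281 KO at ESC (0.63 ± 0.10), 16 h (0.32 ± 0.08) and 32 h (0.85 ± 0.10). Its partner Dppa4 fell in Ehmt1 KO ESC (-0.74 ± 0.16, adjusted p = 0.0042). In libraries labelled Zfp281 KO, Dppa4 was at 112 and 115 CPM at ESC, against 114 and 121 CPM in WT. At 16 h it was at 199 and 222 CPM against 232 and 312 CPM. At 32 h it was higher, at 269 and 280 CPM against 198 and 201 CPM. Dazl, a germline RNA-binding protein, rose at ESC in all 4 genotypes, by 1.05 ± 0.16 (Zfp281), 1.20 ± 0.25 (Ehmt1), 1.67 ± 0.25 (Zic2) and 2.42 ± 0.25 (double KO). Ehmt2, Trim28, Setdb1, Dnmt1 and Uhrf1 were not called in Ehmt1 KO cells or in libraries labelled Zic2 KO at either stage. In all, 3 of the 35 rose and 2 fell at ESC in libraries labelled Zfp281 KO (8.5% of all genes rose), 3 rose and 7 fell in Ehmt1 KO (14.8%), 1 rose in Zic2 KO (0.16%), and 5 rose and 7 fell in the double KO (20.9%), with Ehmt1 itself among the 7. These percentages are shares of genes that rose, so the counts that fell are descriptions only. Without Zfp281_WT, a fit with 1 WT library at ESC, Lin28a was at -2.41 and Dppa2 at 0.46 there. Dux, which switches on this programme, is not analysed here.

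Markers of other cell types were measured beside these changes. Trophoblast genes (8) summed to 32.4 to 114 CPM and primitive endoderm genes (7) to 5.53 to 28.7 CPM over all 28 libraries. At ESC in Ehmt1 KO cells, where 14.8% of all genes rose, 1 trophoblast gene rose, Cdx2 (10.1 to 35.5 CPM, 1.81 ± 0.48), and 1 fell, Krt8 (-1.83 ± 0.46). Among the primitive endoderm genes Pdgfra rose (2.33 ± 0.38) and Gata4 fell (-2.60 ± 0.46). In libraries labelled Zic2 KO 0 genes of both lists were called at either stage (edgeR), where 0.16% of all genes rose at ESC and 0.0447% at 32 h. Of the listed genes, 1 at ESC and 5 at 32 h had an unadjusted p under 0.05. In libraries labelled Zfp281 KO at ESC, where 8.5% of all genes rose, 3 trophoblast genes rose, Eomes (0.99 ± 0.10), Cdx2 (2.15 ± 0.35) and Krt8 (1.14 ± 0.20). Their values without Zfp281_WT were 0.97, 1.63 and 0.84. Fibroblast genes (8) summed to 366 and 372 CPM in these ESC libraries and to 192 and 311 CPM in WT, with 0 called by edgeR and 2 at an unadjusted p under 0.05. The sum is nearly all Vim, which embryonic stem cells also express (365 against 244 CPM). The other 7 were at a lower mean in the KO than in WT at ESC, 6 of them highest in Zfp281_WT, such as Col3a1 at 2.24 CPM there, 0.0547 CPM in the line WT and 0.0603 and 0.0307 CPM in the clones. The part of these markers in the changes of the 2-cell-like genes was not tested.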

How the data were processed

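Gene counts from 28 RNA-seq libraries were used as the authors deposited them, 1 whole-number count per gene and library. The submitters' processing notes name edgeR and the build GRCm38 (mm10). The aligner, the counter and the handling of reads that fit several genes or of strand were stated in no source used here. Of 24116 gene IDs, 24061 matched a symbol in RefSeq (GRCm38.p6), which also gave positions and promoters, and 55 did not. Lengths and 50-base stretches came from GENCODE vM21 transcripts. No columns were left without a sample, and no libraries were identical.

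The 3 tables were fitted apart with edgeR 4.0.16 (limma 3.58.1, R 4.3.3): ribo-depleted ESC and 32 h (18971 genes), ribo-depleted 16 h (15139) and polyA (15667). Genes passed filterByExpr with a minimum count of 10 and a minimum total of 15. Library sizes were scaled by TMM, quasi-likelihood tests shared the spread over all groups of a table, and Benjamini-Hochberg adjusted p-values over all genes under 0.05 were called. CPM uses the scaled library size, and SE is the log2 fold change over the square root of F. Family sums replaced their copies in a second fit. Tested on simulated data, the fits called 47.4% (Ehmt1 KO at ESC, 15245 genes), 55.8% (Zfp281 KO at ESC, 17474) and 72% (16 h, 14963) of 2-fold changes and 80.6%, 75.8% and 95.9% of 4-fold changes, with 4.62%, 11.6% and 9.78% of the calls false. There were 25 comparisons. Alternatives were DESeq2 (1.42.0), its size factors, no filter, only the groups compared, sums over listed members, and leaving out libraries or the line Zfp281_WT. A line or clone was sampled at each stage, so its number pairs stages. The deviations of a line's libraries from their group means correlated at 0.877 (ribo-depleted WT), 0.05 (Zfp281 KO), 0.0467 (polyA WT), 0.462 (Ehmt1 KO), 0.179 (Zic2 KO) and 0.53 (double KO).

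Members, family copies, up to 5 called genes of each of 9 lists (163 genes) and a set of regulators could be named. The members and lists were chosen with earlier results of these data known. The comparison of Ehmt1 KO with Zic2 KO, the TATAAAA motif and the 16 h, gene list and likeness values without Zfp281_WT were added after the data were seen.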

Additional observations from a re-analysis of the deposited data

How the results depend on the processing

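Over all alternatives, 1400 tested values of members and families were recomputed. Of these 33 changed sign, none of them a called value, and 72 of 525 called values lost their call. The cause of each change below was not tested, except that leaving out a library leaves fewer samples. Most counts of members called below are given without the share of all genes under that setting and are descriptions only. With the line as a replicate block, no call changed other than those named beside the stage results and here.

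Zfp281 KO against WT. The number of members called at ESC was 4 with DESeq2, 0 with no filter, 5 without the line Zfp281_WT and 0 to 6 leaving out single libraries. At 32 h it was 8 without that line and 1 to 7 leaving out single libraries, and at 16 h 1 with DESeq2 size factors and 0 to 8 leaving out single libraries. Zscan4 as a sum was 1.35 (ESC) and 1.40 (32 h) without the line, 1.44 to 3.61 (32 h) and 1.37 to 3.83 (16 h) leaving out single libraries.

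Zic2 KO against WT. Members called at ESC were 5 with DESeq2, 2 with no filter and 5 with only the groups compared, and at 32 h 2, 1 and 6. The Zscan4 sum at ESC lost its call with no filter (2.76), over the listed members (2.48) and leaving out single libraries (2.75 to 2.78). At 32 h it was called with DESeq2 (2.27) and with only the groups compared (2.28). The number of genes called was 43 at ESC, against 272 with DESeq2, 94 with no filter and 207 with only the groups compared, and 12 at 32 h, against 175, 48 and 1516. In the double KO at ESC 6166 genes were called, against 3386 with only the groups compared, and for Zfp281 at ESC 2618, against 5511 without Zfp281_WT.

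Ehmt1 KO and double KO. The Zscan4 sum in Ehmt1 KO at 32 h was called over the listed members (1.73) and with only the groups compared (0.98), and at ESC ranged from 1.23 to 2.41 leaving out single libraries. In the double KO at 32 h it ranged from 1.16 to 2.03. Ehmt1 KO against Zic2 KO had 0 to 3 members called at ESC and 0 to 1 at 32 h leaving out single libraries, and 2 at 32 h with only the groups compared. Its Zscan4 sum at 32 h was -1.30 with no filter, -0.55 over the listed members and -1.45 to -1.21 leaving out single libraries, and at ESC -1.54 to -0.36. Leaving out single libraries moved Usp17ld from -0.55 to 0.87 at ESC and from -0.21 to 0.58 at 32 h, and Usp17le from -0.16 to 0.44 at 32 h. Double KO against Zic2 KO had 2 to 6 members called at ESC. Its Zscan4 sum was 0.81 at ESC and 0.19 at 32 h over the listed members and -0.94 to 0.38 at ESC leaving out single libraries, with Tcstv3 at -0.26 to 1.90 at ESC and Zscan4d at -0.30 to 0.59 at 32 h. Double KO against Ehmt1 KO at ESC ranged from -0.11 to 1.40 (Zscan4) and from -0.18 to 1.11 (Usp17l).

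32 h against ESC. Members called in libraries labelled Zfp281 KO were 7 with only the groups compared and 7 with the replicate block. In ribo-depleted WT they were 3 with the block, 2 without Zfp281_WT and 0 to 2 leaving out single libraries. In polyA WT they were 2 with DESeq2, 2 with only the groups compared, 3 with the block and 0 to 1 leaving out single libraries. In Zic2 KO they were 3 with only the groups compared and 2 with the block, and in the double KO 0 to 1 leaving out single libraries. The difference of response had 1 member called with the block for Zfp281, 2 for Ehmt1 and 1 for the double KO, and 1 for Zfp281 without Zfp281_WT. Summed Zscan4 was 1.25 (only the groups compared) and 1.32 (block) in Zfp281 KO. In ribo-depleted WT it was 1.39 (block), 1.20 (without Zfp281_WT) and -0.23 to 3.37 (single libraries). In polyA WT it was 0.84 (only the groups compared) and 0.86 (block), and in Zic2 KO 0.38 (only the groups compared). In Ehmt1 KO it was 0.13 over the listed members and -0.60 to 0.58 leaving out single libraries, and in the double KO -0.66 to 0.66. The Zfp281 difference of response for Zscan4 was -0.038 (DESeq2), -0.12 (listed members), -0.069 (block) and -2.12 to 1.56 (single libraries), and for Zscan4d -0.11 (block). The Usp17l sum ranged from -1.01 to 1.97 in ribo-depleted WT, -0.61 to 0.15 in Ehmt1 KO and -0.56 to 0.82 in the double KO (-0.055 over the listed members), and its Zfp281 difference of response from -1.15 to 1.91.

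With n = 2 in every group, and 1 where a library was left out, each adjusted p rests on the spread pooled over all groups of a table. Depth limits Tcstv3, Usp17ld and Zscan4c, which had a few counts or none in WT libraries, and Zscan4f and Tcstv1 did not pass the filter. Usp17lc is limited too. It reached the filter's minimum in 2 of 4 WT libraries, both in the polyA fit and in the ribo-depleted fit of ESC and 32 h. Its values that involve WT cells, those of the interactions among them, rest on few counts. Zfp352 reached the minimum in 3 of 4 polyA WT libraries.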

Other observations

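Genes that act on telomeres (16 in the tables) were listed because Zscan4 is linked to telomere lengthening. In Ehmt1 KO cells 4 of 14 that passed fell at ESC and 3 at 32 h, and none rose, where 14.8% and 15.1% of all genes rose. Counts of genes that fell are given here without the share of all genes and are descriptions only. Dmc1, a recombinase of meiotic cells, fell most, from 10.4 to 2.87 CPM at ESC (-1.86 ± 0.18, adjusted p = 1.3e-05, edgeR) and from 14.7 to 3.60 CPM at 32 h (-2.03 ± 0.17). Rtel1, a helicase of telomere replication, fell at ESC (-0.69 ± 0.11, adjusted p = 0.00076). Among double KO cells 8 fell at ESC and 5 at 32 h, with Dmc1 at -2.29 ± 0.18 and -2.04 ± 0.17. In libraries labelled Zic2 KO 0 of 14 were called at either stage, where 0.16% of all genes rose at ESC and 0.0447% at 32 h. In libraries labelled Zfp281 KO Dkc1, the dyskerin of the telomerase complex, rose at ESC (0.59 ± 0.17), 16 h (0.39 ± 0.10) and 32 h (0.84 ± 0.17), and Tert fell at 32 h (-0.69 ± 0.13). Without Zfp281_WT, Dkc1 was at 0.30, 0.29 and 0.61 at ESC, 16 h and 32 h, and Tert at -0.60 at 32 h.

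Of 8 naive stem cell genes, none was called at ESC in libraries labelled Zfp281 KO (8.5% of all genes rose), 4 rose at 16 h (15.3%) and 5 at 32 h (16.6%). Among these were Esrrb (1.41 ± 0.29) and Tfcp2l1 (1.75 ± 0.38) at 32 h. Without Zfp281_WT the median of the 8 was 0.15 at ESC, 0.64 at 16 h and 0.96 at 32 h, with Esrrb at 0.94 and Tfcp2l1 at 1.23 at 32 h. In Ehmt1 KO cells 3 rose at ESC and 7 at 32 h (14.8% and 15.1% of all genes rose), with Klf4 at 1.25 ± 0.16 and 2.73 ± 0.19. Of the 8 genes, 7 rose in the double KO at 32 h (21.4% of all genes rose), with Klf4 at 3.17 ± 0.19 and Nanog at 2.29 ± 0.17, and Pou5f1 fell (-0.44 ± 0.11). In libraries labelled Zic2 KO 0 were called at either stage (edgeR), where 0.16% of all genes rose at ESC and 0.0447% at 32 h. Among 5 genes of the formative stage that follows, all fell at 16 h in libraries labelled Zfp281 KO, with Dnmt3a, a DNA methyltransferase, at -2.30 ± 0.10 and Dnmt3b at -1.42 ± 0.09. The share of all genes that fell is not given, so this count is a description only. Without Zfp281_WT these 2 were at -2.39 and -1.41. In libraries labelled Zic2 KO Otx2 fell at ESC (-1.43 ± 0.18, adjusted p = 0.014).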
